A study of Mus musculus with 16 samples.

Results

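The genes described here are those of the proteasome, the protease that breaks down ubiquitin-tagged proteins in the cytosol and nucleus. They were chosen by symbol: every mouse gene whose symbol begins with Psma, Psmb, Psmc, Psmd, Psme, Psmf or Psmg followed by a number was taken, and 51 of the 18580 genes measured met this rule. The values come from RNA of macrophages and microglia that were sorted from the brains of WT mice and of CD163KO littermates, which carry the CD163tm1.1(KOMP)Vlcg allele in every cell, on a C57BL/6N background. Mice of both sexes were operated on at 12 weeks of age, received murine α-syn as monomer (MONO, the control) or as pre-formed fibrils (PFF) in the striatum, and were sacrificed 2 months later. Microglia were gated as CD11b+ cells with low or intermediate CD45, and the cells called macrophages as CD11b+/CD45high, a gate that by the methods also takes in infiltrating cells, neutrophils and NK cells. Between 10000 and 30000 macrophages and between 200000 and 500000 microglia were sorted, from 4 to 7 mice per group. For each of the 8 combinations of sex, genotype and treatment, 1 library per population was analysed, 16 in all. The male CD163KO MONO combination was set aside by the study, so 14 libraries (7 per population) enter the fits below.

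The proteasome is built from a barrel, the 20S core, and a cap, the 19S regulatory particle. The outer rings of the core are formed by the α subunits (Psma1 to Psma7), which gate the barrel, and the inner rings by the β subunits (Psmb1 to Psmb7), of which Psmb5, Psmb6 and Psmb7 carry the proteolytic sites. In cells of the immune system, and in other cells after interferon-γ, these sites can be replaced by Psmb8 (LMP7, in place of Psmb5), Psmb9 (LMP2, in place of Psmb6) and Psmb10 (MECL-1, in place of Psmb7), which gives the immunoproteasome and changes the peptides offered on MHC class I. In the cap, the ATPases (Psmc1 to Psmc6) unfold the substrate, and the non-ATPases (Psmd) recognise and remove ubiquitin. Psme1 and Psme2 form PA28, an activator that can take the place of the cap and is also induced by interferon-γ.

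Of the 51 symbols, 14 are constitutive 20S subunits, 3 are immunoproteasome subunits, 17 are 19S subunits and 5 are activators of the core. A further 3 symbols (Psmd5, Psmd9, Psmd10) are chaperones of base assembly and 4 (Psmg1 to Psmg4) chaperones of core assembly, and Psmf1 is an inhibitor. Psma8 is the α subunit of the testis and Psmb11 the β subunit of the thymus cortex. Psmc3ip and Psme3ip1 meet the rule by their symbols and are not proteasome subunits. A further 6 symbols of the pattern are pseudogenes with no transcript in the RefSeq table, so reads of such copies, where there were any, could be counted with the parent gene.

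Psmb8 and Psmb9 lie close together in the MHC on chromosome 17, either side of Tap1, one of the genes of the transporter that carries proteasome products into the endoplasmic reticulum. In GRCm38.p6 (RefSeq), Psmb9 spans chr17:34182030-34187330, Tap1 chr17:34187556-34197225, Psmb8 chr17:34198195-34201454 and Tap2 chr17:34204479-34216321. Psmb10 lies on chromosome 8 (chr8:105935728-105938392), Psmb5 on chromosome 14 (chr14:54614120-54617995), Psmb6 on chromosome 11 (chr11:70525324-70527858) and Psmb7 on chromosome 2 (chr2:38588046-38643952). The 120 bases before the start of the 3 immunoproteasome genes and of Psmb5 are shown because they are among the genes whose balance is compared below. Capitals mark either TTCNNNGAA, the sequence of the interferon-γ activated site, or TGACNNNGC, the core of the antioxidant response element, searched on both strands. The windows are chr17:34198075-34198194 (plus strand) for Psmb8, chr17:34187331-34187450 (minus strand) for Psmb9, chr8:105938393-105938512 (minus strand) for Psmb10 and chr14:54617996-54618115 (minus strand) for Psmb5.
Psmb8: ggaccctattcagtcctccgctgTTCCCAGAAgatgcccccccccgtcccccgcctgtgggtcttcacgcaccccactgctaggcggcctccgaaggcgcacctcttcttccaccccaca
Psmb9: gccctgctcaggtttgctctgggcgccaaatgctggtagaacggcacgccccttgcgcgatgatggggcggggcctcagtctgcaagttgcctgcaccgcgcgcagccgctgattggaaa
Psmb10: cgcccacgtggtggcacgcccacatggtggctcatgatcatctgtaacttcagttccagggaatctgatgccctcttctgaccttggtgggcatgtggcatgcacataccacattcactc
Psmb5: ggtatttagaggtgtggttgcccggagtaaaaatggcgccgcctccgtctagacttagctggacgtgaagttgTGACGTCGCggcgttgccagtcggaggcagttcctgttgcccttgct
In these windows TTCNNNGAA stood between 97 and 89 bases before the start of Psmb8, and TGACNNNGC between 47 and 39 bases before that of Psmb5. Neither set of letters occurred in the windows of Psmb9 and Psmb10. Within 250 bases before the start, TTCNNNGAA was present in 7.02% of 32851 promoters and TGACNNNGC in 10.2%. Promoters were listed for 43 of the 51 symbols, of which 2 held TTCNNNGAA (Psmb8 and Psmg1) and 5 held TGACNNNGC (Psmb5, Psmb6, Psmc6, Psmd9 and Psmd12). These matches are a description of the letters and not of binding.

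The macrophage libraries held 12170700 to 21433800 estimated counts each, and the microglia libraries 8648750 to 18768200. Several libraries stood apart. The male WT PFF macrophages listed 9524 transcripts, had the lowest median correlation with the other macrophage libraries (Pearson's r of 0.803 across genes, against 0.943 to 0.953 in the other 6 that enter the fits), and 6 symbols were at 0 in it: Psma8, Psmc3ip, Psmd9, Psmd10, Psmg1 and Psmg3. In the male WT PFF microglia, Cst3 alone took 19.7% of the counts. Among microglia, the female CD163KO MONO library by its label had 799 counts of 4 Y-linked genes, against 0 to 2 in the other female libraries. Cd163 had between 748 and 5275 counts in the 4 WT macrophage libraries and 0 or 1 in the 4 CD163KO ones. In microglia it had between 0 and 101 counts in WT and between 5 and 23 in CD163KO, so the genotype of microglia could not be checked by this gene. The 10 microglial markers summed to between 16628 and 42722 FPKM in the 7 microglia libraries and to between 916 and 1735 in the 7 macrophage libraries. The 8 markers of border-associated macrophages summed to between 9.86 and 117 FPKM in microglia and between 1682 and 4687 in macrophages. The 8 neutrophil markers summed to between 22053 and 134271 FPKM in the macrophage libraries and between 1155 and 2836 in microglia, so the CD11b+/CD45high libraries hold neutrophil transcripts at high levels.

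Proteasome mRNA was abundant in both populations, and of the immunoproteasome subunits Psmb8 was among the most abundant members, while Psmb10 ranked 11 of 51 by mean FPKM in both populations and Psmb9 ranked 19 in microglia and 15 in macrophages. FPKM is the estimated count scaled to transcript length and library size, which allows levels of different genes to be set side by side. Psmb8 had 218 ± 62.1 FPKM in microglia and 220 ± 77.5 FPKM in macrophages (mean ± SD, n = 7 libraries each), higher than 98.5% and 98.6% of all genes. In microglia the order of mean FPKM began with Psmb3, Psmb8, Psmb6, Psme2 and Psmb2, and in macrophages with Psme2, Psmb2, Psmb8, Psmb3 and Psmb6. The means of these 5 genes lay within their SDs of each other in either population. Psmb10 had 114 ± 32.0 FPKM in microglia and 94.5 ± 34.1 in macrophages, and Psmb9 had 85.6 ± 35.4 and 78.8 ± 54.5 (n = 7 each). Of the genes they replace, Psmb6 had 217 ± 79.1 FPKM in microglia and 214 ± 108 in macrophages, Psmb5 had 83.9 ± 31.8 and 61.8 ± 34.1, and Psmb7 had 89.3 ± 39.7 and 39.3 ± 26.4. At the other end, the thymus subunit Psmb11 reached at most 0.54 FPKM in any of the 14 libraries and the testis subunit Psma8 at most 8.06.

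Among the 7 microglia libraries of the fits, the FPKM of the members was steady from library to library with the exception of male WT PFF. The coefficient of variation of the 34 core and 19S subunits, immunoproteasome included, had a median of 16.4% (range 4.95% to 34.9%) over the 6 microglia libraries other than male WT PFF, and of 36.5% with it. Over the corresponding 6 macrophage libraries it had a median of 52.1% (range 26.1% to 79.3%). The level of Psmb8 in microglia shows this: 225 FPKM in female WT MONO, 241 in female WT PFF, 241 in male WT MONO, 228 in female CD163KO MONO, 245 in female CD163KO PFF and 264 in male CD163KO PFF, with 79.9 in male WT PFF. In macrophages it was 225 in female WT MONO, 205 in female WT PFF, 379 in male WT MONO, 184 in male WT PFF, 172 in female CD163KO MONO, 238 in female CD163KO PFF and 139 in male CD163KO PFF. The macrophage values thus spread on either side of the microglia values. FPKM is not corrected for genes that take a large share of a library. The TMM factors, which make this correction in the fits below, lay between 0.333 and 0.894 in the 6 macrophage libraries other than male WT PFF. In the 6 corresponding microglia libraries they lay between 1.96 and 2.12. Their part in the spread was not tested. All 51 symbols together took between 0.149% and 0.618% of the counts of a library, and the lowest share was that of the male WT PFF microglia. The male CD163KO MONO microglia, outside the fits, were also low, at 0.340%, with Cst3 at 18.3% of the counts.

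**Figure D1:**
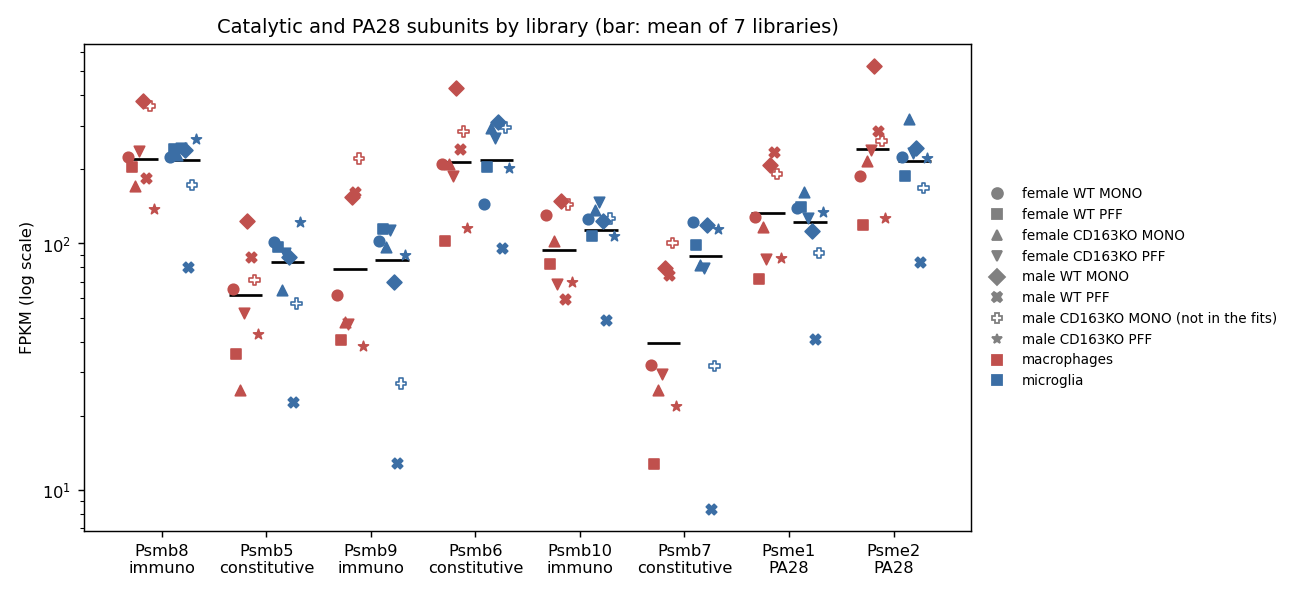
FPKM of the 3 immunoproteasome subunits, the 3 constitutive subunits they replace and the PA28 subunits in each of the 16 libraries, on a log scale, with 1 marker shape per combination of sex, genotype and treatment and a bar at the mean of the 7 libraries of each population that enter the fits. Both populations overlap for all 8 genes, the male WT PFF microglia (blue filled crosses) are the lowest microglia library for each of them, and Psmb7 in macrophages lies lowest among the means.

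The first comparison asked whether the balance of immunoproteasome and constitutive subunits differed between the populations. At 1 of the 3 sites, that of Psmb8 and Psmb5, the immunoproteasome gene made up most of the mRNA in every library. Psmb8 formed between 68.5% and 77.9% (median 72.8%) of the summed FPKM of the pair in the 7 microglia libraries and between 67.7% and 87.1% (median 77.6%) in the 7 macrophage libraries. At the second site the constitutive gene was the more abundant throughout: Psmb9 formed between 11.8% and 41.4% (median 29.6%) of its pair with Psmb6 in microglia and between 18.6% and 40.0% (median 24.9%) in macrophages. At the third, Psmb10 formed between 48.3% and 85.4% (median 52.0%) of its pair with Psmb7 in microglia and between 44.5% and 86.6% (median 76.0%) in macrophages. The smallest count behind any of these shares was 143, for Psmb7 in male WT PFF microglia.

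The log2 ratio of Psmb8 to Psmb5 (both as FPKM + 1) was on average 1.93 in macrophages and 1.43 in microglia. Compared within the 7 combinations, it was 0.50 ± 0.62 (SD, n = 7 pairs) higher in macrophages, with 6 of 7 pairs higher, and an exact two-sided sign-flip test over the pairs gave p = 0.0781 (adjusted p = 0.234 over the 3 sites). For Psmb10 to Psmb7 the difference was 0.83 ± 1.73 (n = 7 pairs), again higher in 6 of 7 pairs (exact p = 0.234, adjusted p = 0.352). For Psmb9 to Psmb6 it was -0.07 ± 1.16 (n = 7 pairs), higher in 2 of 7 (exact p = 0.891, adjusted p = 0.891). The smallest p that 7 pairs allow is 0.0156. The study also removed outlier samples by numbers that the labels used here do not carry, so it is not known whether they bear on the libraries analysed. The male WT PFF pair, 1 of those with libraries that stood apart, was the exception for Psmb8 and for Psmb10. There the difference was -0.71 for Psmb8 to Psmb5 and -2.73 for Psmb10 to Psmb7. Without that pair the mean difference was 0.70 ± 0.34 for Psmb8 to Psmb5 and 1.42 ± 0.79 for Psmb10 to Psmb7, higher in 6 of 6 pairs each. Both then passed the limit (exact p = 0.0312, the smallest that 6 pairs allow, and adjusted p = 0.0469). The pair left out was the only one of opposite sign at both sites, which sets the exact p at that smallest value. No conclusion is drawn from these p-values. Without the male WT PFF pair Psmb9 to Psmb6 was lower in macrophages in 5 of 6 pairs, by -0.45 ± 0.63 (exact p = 0.156). With the male CD163KO MONO pair added, the differences were 0.53, 0.32 and 0.55 for the 3 sites, and none passed. The female CD163KO MONO pair had 799 Y-linked counts in microglia and 0 in macrophages, so its pairing is uncertain. Without this pair the differences were 0.43, 0.004 and 0.77, and none passed. Without both this pair and male WT PFF they were 0.66, -0.44 and 1.46, where the smallest exact p possible is 0.0625. A ratio within a library does not depend on how libraries are scaled to each other. The summed neutrophil markers, at 22053 FPKM or more in the 7 macrophage libraries and at 2836 or less in the 7 microglia libraries, moved with the same groups. So did those of monocytes (295 or more against 76.65 or less), dendritic cells (597 against 10.76) and NK cells (39.6 against 5.65). Those of T cells, B cells and other brain tissue overlapped between the populations. The part of these cells in the ratios was not tested.

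**Figure D2:**
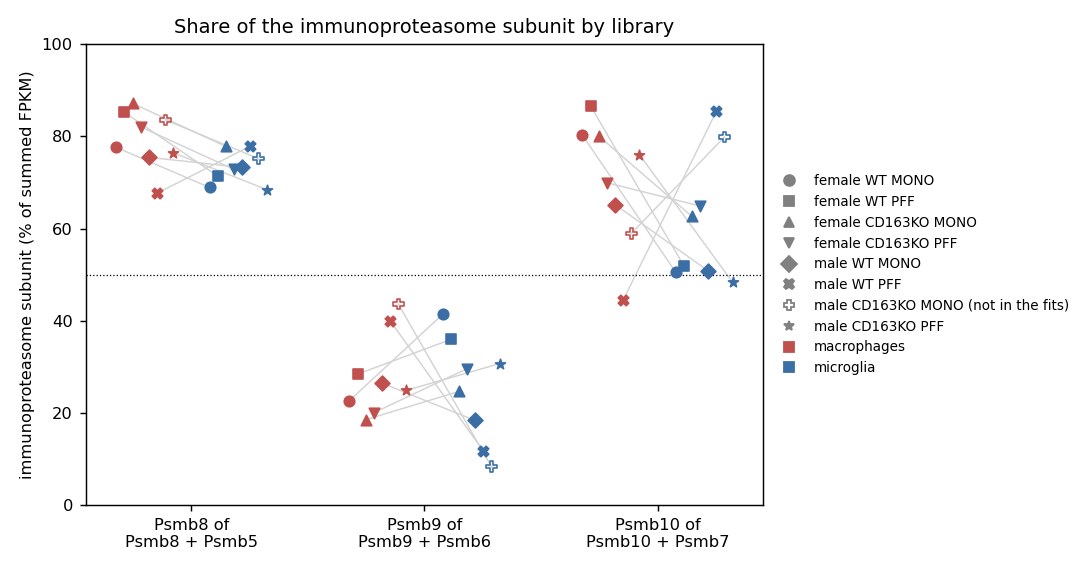
Share of the immunoproteasome subunit in the summed FPKM of each pair (in %, linear axis from 0 to 100), per library, with grey lines joining the macrophages and microglia of the same sex, genotype and treatment and a dotted line at equal shares. Psmb8 lies above that line in all libraries and Psmb9 below it, and the male WT PFF pair runs against the other pairs of the fits at the sites of Psmb8 and Psmb10.

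The level of each gene was then compared between the populations with edgeR's quasi-likelihood test on the estimated counts, adjusted for sex, genotype and treatment. Of the 51 symbols tested, 22 passed an adjusted p of 0.05, all higher in macrophages after TMM scaling, while with limma on log2(FPKM + 1), which has no such scaling, 0 were higher and 13 were lower. Over all 12826 genes tested, 23.2% passed with edgeR (14.6% as higher and 8.66% as lower in macrophages) and 52.4% with limma on FPKM (46.6% as lower). The median log2 fold change of the members was 0.72 with edgeR, where that of all genes was -0.17, and -0.68 with limma on FPKM, where that of all genes was -0.94. The TMM factors, which correct for genes that take a large share of a library, lay between 0.333 and 0.894 in 6 macrophage libraries and between 1.96 and 2.12 in 6 microglia libraries. In the male WT PFF libraries they were 1.36 and 0.432. Without the male WT PFF libraries of both populations, 28 members were higher and 1 (Psme4) was lower with edgeR, where 39.3% of all genes passed (21.1% as higher), and without the male WT MONO libraries 12 were higher, where 18.1% of all genes passed. In bulk RNA, a change in the make-up of a sorted population cannot be told apart from a change of mRNA per cell. Which way the proteasome as a whole differed between the populations therefore depended on the scaling, whereas the order of the members did not depend on it as much: Spearman's rho between the fold changes under both scalings was 0.893 across the 51 symbols, which are not independent replicates and come from the same libraries.

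Within that order, the medians of the core and of the immunoproteasome lay above that of the cap. With edgeR, 12 of the 14 constitutive 20S subunits, 3 of 3 immunoproteasome subunits and 4 of the 17 19S subunits were higher in macrophages, where 14.6% of all genes were higher. With limma on FPKM 0, 0 and 6 of them passed, the last as lower, and 46.6% of all genes were lower, so the count of 6 of 17 was not above the share of all genes. Since by the methods both populations were sorted from the same brains, the combination of sex, genotype and treatment was also taken as a block. The counts with edgeR were then 10 of 14, 2 of 3 and 3 of 17 (11.6% of all genes were higher, and 18.2% passed in either direction). Psma4, Psmb4, Psmb10 and Psmc3 then missed the limit, with edgeR adjusted p-values of 0.0509, 0.0548, 0.0554 and 0.0825. The median log2 fold change was 0.99 for the constitutive 20S subunits, 1.26 for the immunoproteasome and 0.49 for the 19S subunits with edgeR, and -0.41, -0.14 and -0.89 with limma on FPKM. The 2 constitutive core subunits that did not pass were Psma6 (log2 fold change 0.88, SE 0.56) and Psmb7 (0.20, SE 0.28). The 4 that passed in the cap were the ATPases Psmc1, Psmc3 and Psmc4 and the non-ATPase Psmd8, with log2 fold changes between 0.72 and 1.02. Without the male WT MONO libraries none of these 4 passed, and the counts of core, immunoproteasome and cap were 7 of 14, 2 of 3 and 0 of 17 (11.5% of all genes were higher). Without the male WT PFF libraries they were 13 of 14, 3 of 3 and 8 of 17 (21.1%). Without the filter on low counts they were 6 of 14, 1 of 3 and 0 of 17, where 1346 of 18255 genes were higher.

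The α subunit Psma7, the member with the smallest adjusted p, had a lowest, median and highest FPKM of 93.8, 127 and 330 in macrophages and of 38.0, 169 and 187 in microglia. The groups overlap on this scale, and after TMM scaling its log2 fold change was 1.62 (SE 0.21, edgeR adjusted p = 5.9e-05), against 0.19 with limma on FPKM. Psma2, another subunit of the outer ring, had 38.5, 89.1 and 201 FPKM in macrophages and 21.8, 105 and 127 in microglia. Its log2 fold change was 1.47 (SE 0.21, edgeR adjusted p = 0.000144), and 0.08 with limma on FPKM. Psme1, the PA28α subunit, had 71.7, 117 and 234 FPKM in macrophages and 40.9, 134 and 162 in microglia. Its log2 fold change was 1.49 (SE 0.21, edgeR adjusted p = 0.000131). Psme2, the PA28β subunit, had 118, 216 and 524 FPKM in macrophages and 84.1, 225 and 320 in microglia, with a log2 fold change of 1.49 (SE 0.26, edgeR adjusted p = 0.000713). Both PA28 subunits were near 0 with limma on FPKM, at 0.10 and 0.09. Psmb1, a β subunit without a proteolytic site, had a log2 fold change of 1.15 (SE 0.21, edgeR adjusted p = 0.000815), and -0.24 with limma on FPKM.

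Psmb8 followed, with a log2 fold change of 1.51 (SE 0.29, edgeR adjusted p = 0.00127), and 0.04 with limma on FPKM. Psmb9 had 38.5, 48.1 and 161 FPKM in macrophages and 12.9, 96.4 and 115 in microglia. Its log2 fold change was 1.26 (SE 0.27, edgeR adjusted p = 0.00292), and -0.14 with limma on FPKM. Psmb10 had 59.4, 82.6 and 149 FPKM in macrophages and 48.8, 123 and 147 in microglia, with a log2 fold change of 1.21 (SE 0.34, edgeR adjusted p = 0.0175), and -0.27 with limma on FPKM. It did not pass with the block (adjusted p = 0.0554 with edgeR), with all libraries, without the filter on low counts, or when 1 of 5 of the 7 combinations was left out (all but male WT PFF and female CD163KO PFF). Of their constitutive counterparts, Psmb6 had a log2 fold change of 1.29 (SE 0.29), Psmb5 of 0.95 (SE 0.24) and Psmb7 of 0.20 (SE 0.28), with edgeR adjusted p-values of 0.00433, 0.0107 and 0.649. Psmb5 did not pass without the male WT MONO libraries, and neither Psmb5 nor Psmb9 passed without the filter on low counts. Psmb7 had 12.8, 29.4 and 79.5 FPKM in macrophages and 8.35, 98.8 and 122 in microglia, and its low values in microglia come from the male WT PFF library, the others being at 79.4 or above. With limma on FPKM, Psmb5, Psmb6 and Psmb7 were at -0.47, -0.07 and -1.10, and none of the 3 passed.

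Members with a log2 fold change below 0 were not called with edgeR. They included Psmb11 (-1.39, SE 1.13) and Psma8 (-0.87, SE 1.53), both at very low levels, and genes of the cap and of the other activators. Psme4, the PA200 activator, had a log2 fold change of -0.99 (SE 0.57, edgeR adjusted p = 0.241). Psmd1, a scaffold of the base, had one of -0.40 (SE 0.31), and Psme2b, an intronless copy of Psme2, one of -0.33 (SE 0.30), neither of which passed with edgeR. With limma on FPKM these 3 were lower in macrophages, with log2 differences of -1.77 for Psme4, -1.75 for Psmd1 and -1.69 for Psme2b. Reads of Psme2 and Psme2b can be assigned to either gene, so their separate values are uncertain. Of the assembly chaperones, 1 of 4 for the core (Psmg4, 1.83, SE 0.40) and 0 of 3 for the base passed with edgeR, where 23.2% of all genes passed. Psmg4 did not pass with limma on FPKM (0.44), and the other core chaperones were lower, with Psmg1 at -1.72, Psmg2 at -1.30 and Psmg3 at -1.54, where 46.6% of all genes were lower. Psmf1 had a log2 fold change of 0.42 (SE 0.35) and did not pass.

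**Figure D3:**
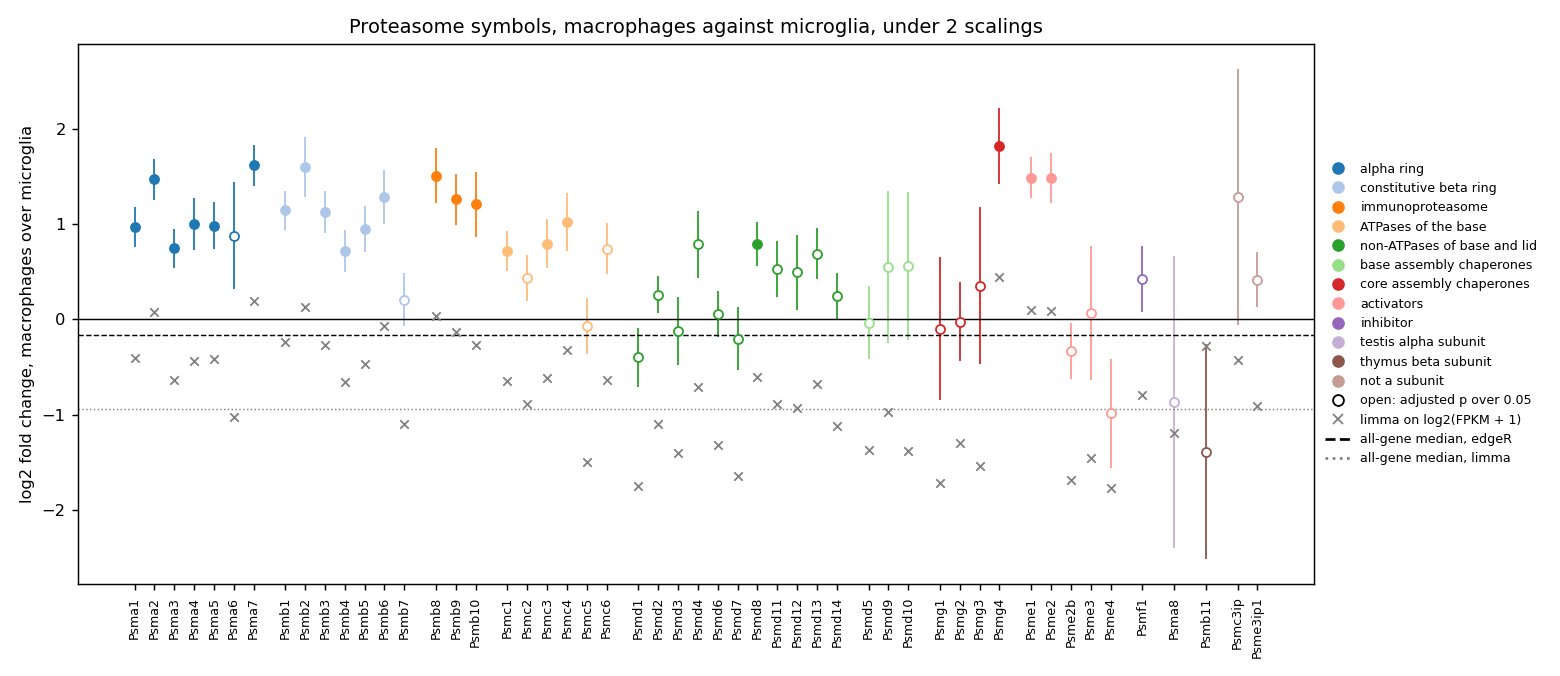
Log2 fold change of each symbol in macrophages over microglia, grouped by role, from edgeR with TMM scaling (circles with bars of 1 SE, filled where the adjusted p was at most 0.05) and from limma on log2(FPKM + 1) (grey crosses), with the medians of all genes as dashed and dotted lines. The medians of the 20S (0.99 and -0.41) and immunoproteasome genes (1.26 and -0.14) lie above that of the 19S genes (0.49 and -0.89) with edgeR and limma, with Psmb7 among the 19S values, while the sign of most members differs between the scalings.

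The difference between core and cap could be seen inside single libraries, where no scaling between libraries enters. In each library, the median log2(FPKM + 1) of the 17 19S subunits was taken from that of the 14 constitutive 20S subunits. In microglia the result was between 0.67 and 1.08 in the 7 libraries, and in macrophages between 0.92 and 1.75. Macrophages were higher in 7 of 7 pairs of the same sex, genotype and treatment, by 0.66 ± 0.27 (SD, n = 7, range 0.19 to 1.07), and by 0.64 ± 0.29 without the male WT PFF pair (n = 6). The highest difference, 1.07, was that of the female CD163KO MONO pair, whose microglia held Y-linked counts. With the male CD163KO MONO pair macrophages were higher in 8 of 8, by 0.60 ± 0.30. This grouping was chosen with the fold changes in view, so these values are given without a test. Transcript length and abundance move with it. The 20S transcripts had a median length of 1017 bases (range 731 to 2398) and the 19S transcripts one of 1564 (1277 to 3256), and the median of the mean FPKM in microglia was 96.6 for the 20S and 59.6 for the 19S subunits. Across the 51 symbols, Spearman's rho of the edgeR fold change was -0.590 with transcript length and 0.727 with mean FPKM. Across all 12826 genes these were -0.328 and 0.206. The part of length and of abundance in the difference between core and cap was not tested.

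**Figure D4:**
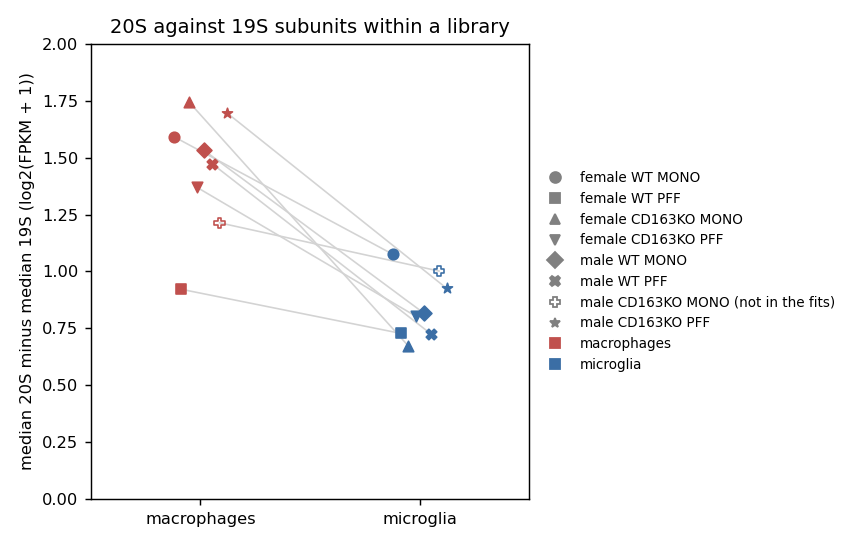
Median log2(FPKM + 1) of the 14 constitutive 20S subunits minus that of the 17 19S subunits in each library, with grey lines joining macrophages and microglia of the same sex, genotype and treatment. Each of the 8 lines, open markers for the combination outside the fits included, is higher at its macrophage end.

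Genes that work with the proteasome were examined as a list of 27 symbols, 25 of which matched a measured gene. With edgeR 7 of the 25 were higher and 1 was lower in macrophages, with a median log2 fold change of 0.41, where 14.6% of all genes were higher and 8.66% lower. With limma on FPKM 1 was higher and 10 were lower (median -0.81), where 52.4% of all genes passed. The called gene with the smallest adjusted p was Sem1, a small subunit of the 19S lid that lies outside the naming pattern, which had a lowest, median and highest FPKM of 70.4, 175 and 576 in macrophages and 28.7, 133 and 163 in microglia. Its log2 fold change was 2.31 (SE 0.27, edgeR adjusted p = 2.2e-05). Others that passed were Rps27a (1.72, SE 0.27), which encodes ubiquitin fused to a ribosomal protein, and Zfand5, a ubiquitin-binding protein that stimulates the proteasome (2.39, SE 0.58). Pomp, the maturation factor of the 20S core, chosen here after its value was seen, had a log2 fold change of 1.56 (SE 0.38). None of these 4 passed with limma on FPKM (Sem1 0.92, Rps27a 0.30, Zfand5 0.89 and Pomp 0.11), and the 1 gene that was higher was Ubb, a polyubiquitin gene, at 1.66. The gene of the list lower in macrophages in the edgeR fit of 14 libraries was Ecpas, a proteasome adaptor, with a log2 fold change of -1.24 (SE 0.34, edgeR adjusted p = 0.0163), and it was also lower with limma on FPKM, at -1.79. Without the male WT PFF libraries 10 genes of the list were higher and 3 lower (Ecpas, Nfe2l2 and Vcp), where 39.3% of all genes passed. Nfe2l1, the transcription factor that raises proteasome genes when the proteasome fails, had a log2 fold change of -0.45 (SE 0.68, edgeR adjusted p = 0.686), and was lower with limma on FPKM, at -1.76 (limma adjusted p = 0.00429).

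A list of 17 genes of the interferon response and of peptide loading was examined because Psmb8, Psmb9, Psmb10 and PA28 belong to the same program. With edgeR 7 of the 17 were higher and 1 was lower in macrophages, with a median log2 fold change of 0.93, where 23.2% of all genes passed (14.6% as higher). With limma on FPKM 4 were higher (B2m, Irf7, H2-K1 and H2-D1) and 6 were lower, with a median of -0.42, where 52.4% of all genes passed. H2-D1, an MHC class I heavy chain, had a lowest, median and highest FPKM of 1395, 2081 and 3589 in macrophages and 370, 758 and 1293 in microglia, and here the groups did not overlap. Its log2 fold change was 3.08 (SE 0.45, edgeR adjusted p = 0.000152), and 1.49 with limma on FPKM. H2-K1 had a log2 fold change of 2.60 (SE 0.39) and the interferon-induced factor Irf7 one of 3.77 (SE 0.69). Irf8, a transcription factor of the myeloid lineage, was the gene that was lower, by -1.02 with edgeR (SE 0.20, adjusted p = 0.00134) and by -2.38 with limma on FPKM. Tap1, which lies between Psmb9 and Psmb8, had a log2 fold change of 0.93 (SE 0.24, edgeR adjusted p = 0.0108) and Tap2 one of -0.43 (SE 0.36). Tap1 was at -0.42 with limma on FPKM and did not pass, while Tap2 was lower, at -1.70 (limma adjusted p = 0.0179).

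The study asked how the loss of CD163 changes the response to α-syn, and the members were therefore compared by genotype, by treatment and by sex within each population. No symbol passed in any of these comparisons. For CD163KO against WT, 0 of 50 symbols tested in macrophages and 0 of 51 in microglia had an edgeR adjusted p of at most 0.05, where 0.00834% of 11988 genes passed in macrophages and 0% of 12725 in microglia. For PFF against MONO the counts were also 0 of 50 and 0 of 51, with 0% of all genes in both populations, and the same held for male against female. The sex fit in macrophages passed no gene, although 4 Y-linked genes together had 0 to 2 counts in the female and 350 to 6545 in the male libraries. In microglia the female group includes the library with 799 such counts. A count of 0 in these fits therefore does not show that the members were alike between the sexes. At an unadjusted p under 0.05, edgeR gave 0 members in 5 of these 6 comparisons and 1 in PFF against MONO in macrophages. Of all genes, that limit was met by 0.659% for genotype, 1.04% for treatment and 1.27% for sex in macrophages, and by 1.3%, 6.01% and 1.69% in microglia. DESeq2 and limma on FPKM passed 0 members each after adjustment, where DESeq2 passed 2 to 25 and limma 0 to 6 of all genes per comparison. At an unadjusted p under 0.05, DESeq2 gave 2 members and limma 3 for PFF against MONO in macrophages, limma gave 1 for male against female in macrophages, and both gave 0 elsewhere. The share of all genes at this limit is given for edgeR only, here and below. The DESeq2 and limma counts therefore cannot be set beside such a share. The median SE of a member's log2 fold change was 0.50 for genotype and 0.49 for treatment in macrophages, and 0.32 for either in microglia, which is the precision that 7 libraries gave.

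The differences of the immunoproteasome subunits by genotype did not pass in either population. In macrophages CD163KO differed from WT by -0.10 (SE 0.48) for Psmb8, -0.39 (SE 0.39) for Psmb9 and 0.11 (SE 0.52) for Psmb10. In microglia the differences were -0.09 (SE 0.32), 0.16 (SE 0.28) and -0.09 (SE 0.37). With limma on FPKM the median of the 3 was -0.36 in macrophages and 0.45 in microglia, and that of all genes was -0.14 and 0.35. Psmb9 was at 61.8 FPKM in female WT MONO, 40.5 in female WT PFF, 154 in male WT MONO, 161 in male WT PFF, 48.1 in female CD163KO MONO, 47.1 in female CD163KO PFF and 38.5 in male CD163KO PFF macrophages. In FPKM the 2 high values belong to WT males, and the 3 CD163KO values lie within or just below those of WT females. These values are not corrected by the TMM factors. In the fit of both populations these factors were 0.894 in male WT MONO and 1.36 in male WT PFF macrophages. In the other macrophage libraries of that fit they lay between 0.333 and 0.712. Whether the order of the Psmb9 values holds after scaling was not tested. In the male CD163KO MONO macrophages, outside the fits, Psmb9 was at 221 FPKM. In microglia Psmb9 was at 102 and 115 in female WT, 70.0 and 12.9 in male WT, 96.4 and 113 in female CD163KO and 90.2 in male CD163KO PFF, the first value of each pair being MONO. PFF against MONO gave log2 fold changes of -0.00083 (SE 0.44) for Psmb8, of -0.19 (SE 0.38) for Psmb9 and of -0.37 (SE 0.52) for Psmb10 in macrophages, and of 0.30 (SE 0.32), 0.19 (SE 0.28) and 0.23 (SE 0.36) in microglia. The median of the 3 with limma on FPKM was -0.42 in macrophages (all genes -0.21) and -0.41 in microglia (all genes -0.32), so in microglia the sign turned with the scaling.

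For PFF against MONO in macrophages, the median log2 fold change of the 14 constitutive 20S subunits was -0.55 (range -0.87 to 0.07) with edgeR, while that of all 11988 genes was -0.11, and with limma on FPKM it was -0.78, with -0.21 for all genes. None of the 14 passed, and they were singled out after their values were seen. The median of the 50 members tested was -0.23 with edgeR and -0.49 with limma on FPKM, and 8 of the 17 19S subunits were above 0 with edgeR. Psmb3, a β subunit without a proteolytic site, had the smallest p of the members, with a log2 fold change of -0.87 (SE 0.33, edgeR adjusted p = 1). It was at 206 FPKM in female WT MONO, 521 in male WT MONO and 175 in female CD163KO MONO, and at 73.7 in female WT PFF, 280 in male WT PFF, 131 in female CD163KO PFF and 118 in male CD163KO PFF macrophages. The PFF library was the lower in each of the 3 combinations of sex and genotype with both treatments, but the groups overlap across the sexes. In microglia the 14 subunits had a median of 0.15 with edgeR (all genes 0.13) and of -0.46 with limma on FPKM (all genes -0.32), so that the sign turned with the scaling, and Psmb3 was between 258 and 294 FPKM in 6 libraries, with 56.7 in male WT PFF. Whether PFF against MONO differed between the populations was tested in 1 fit over both, and 0 of 51 symbols passed (0.00730% of 13704 genes passed with edgeR). The same held for CD163KO against WT between populations (0 of 51, and 0% of all genes), with 0 members by DESeq2 and by limma, and 0 at an unadjusted edgeR p under 0.05, in both tests. That limit was met by 1.65% of all genes for treatment and 1.22% for genotype. After adjustment, DESeq2 passed 231 of the 13704 genes for treatment and 197 for genotype, and limma passed 0 in both.

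**Figure D5:**
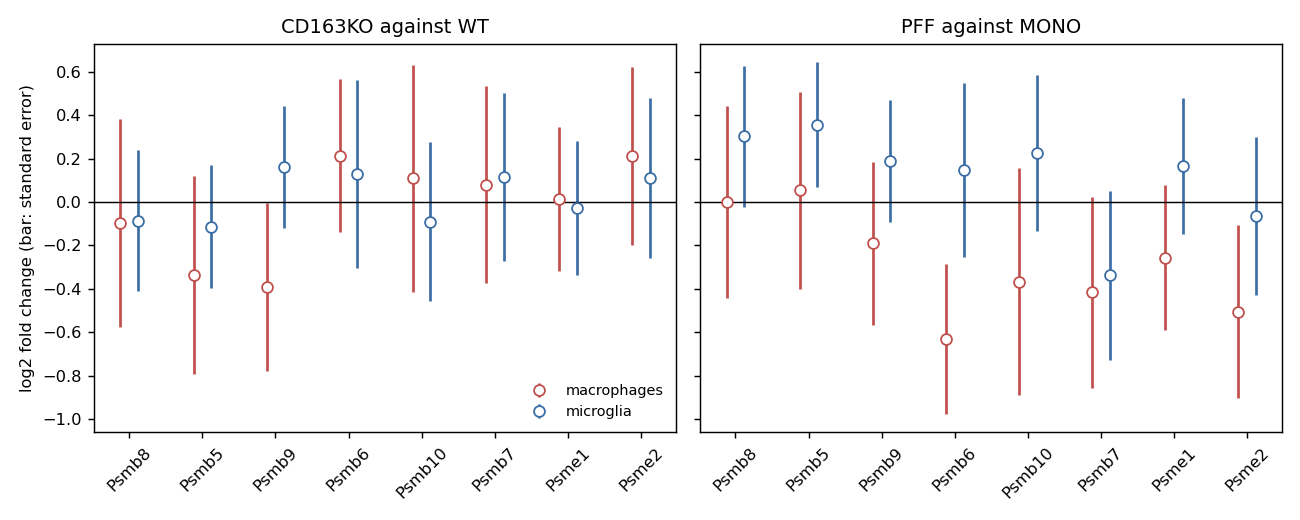
Log2 fold change (edgeR, circles with bars of 1 SE) of the 8 catalytic and PA28 genes for CD163KO against WT (left) and PFF against MONO (right) in macrophages and microglia. The symbols are open because none passed an adjusted p of 0.05, and most bars cross 0.

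Whether the response to PFF differed between CD163KO and WT was tested by an interaction term. In macrophages 0 of 51 symbols passed (0% of 13020 genes), and in microglia 0 of 51 (0.0211% of 14225 genes), with 0 members at an unadjusted p under 0.05 by edgeR in both (0.453% and 4.77% of all genes). DESeq2 and limma on FPKM also passed 0 members, and limma gave 2 in macrophages at an unadjusted p under 0.05. The male CD163KO MONO library is missing from these fits, so the interaction rests on 1 library in the CD163KO MONO group. In microglia this is the female library with Y-linked counts, and the term could not be fitted without it. The median SE of a member's term was 1.20 in macrophages and 0.69 in microglia. Without the female WT PFF macrophages, 9 symbols passed, and so did 26.3% of all 12820 genes in that fit. The WT PFF group is then the male library that stood apart, in which 5 of the 9 symbols were at 0 (Psmc3ip, Psmd9, Psmd10, Psmg1 and Psmg3) and Psme3 was at 0.04 FPKM.

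The ratios of immunoproteasome to constitutive subunit were compared by genotype and by treatment within each population as well, which gave 12 exact two-sided permutation tests over 7 libraries each. None passed: the exact p-values lay between 0.114 and 0.943 and all adjusted values were 0.943. With 35 ways of assigning the labels the smallest p possible is 0.0286, so that a single comparison at this limit could not have passed after adjustment over 12. The lowest p was that of Psmb9 to Psmb6 in macrophages by genotype, where the log2 ratio was -1.88 ± 0.28 in CD163KO (SD, n = 3) and -1.28 ± 0.50 in WT (n = 4, exact p = 0.114). The difference of -0.60 was -0.37 without the male WT PFF library (exact p = 0.2) and -0.22 with all libraries (exact p = 0.571). The ranges overlapped, from -2.11 to -1.56 in CD163KO and from -1.75 to -0.58 in WT. The ratio of Psmb8 to Psmb5 in microglia was the most alike, at 1.44 ± 0.34 in CD163KO (n = 3) and 1.42 ± 0.27 in WT (n = 4, exact p = 0.943), and at 1.40 ± 0.28 under PFF (n = 4) and 1.46 ± 0.33 under MONO (n = 3, exact p = 0.686).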

How the data were processed

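RNA of FACS-sorted macrophages and microglia was amplified by SMART-seq2 and sequenced. The authors removed rRNA and low-quality reads, and their processing notes name Bowtie2, RSEM, DESeq2 and the mm10 build. Each deposited table gives, per RefSeq transcript, an expected count estimated by RSEM that is not normalized, and the deposited FPKM, scaled by the authors to transcript length and library size. Whether a table holds 1 library or pooled triplicates is not given in the sources used here, so p-values measure only the spread between these tables. The authors' batch correction could not be repeated.

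Transcripts were named by the RefSeq GRCm38.p6 table (27632 of 27787 matched), expected counts and FPKM were summed per symbol, unlisted genes were set to 0, and counts were rounded. Groups were taken from the labels. Differences were tested with edgeR 4.0.16 in R 4.3.3 (TMM, filterByExpr, quasi-likelihood test, Benjamini-Hochberg adjustment over all genes, limit 0.05) with additive terms for sex, genotype, treatment and, where both were fitted, population, and with interaction terms. DESeq2 1.42.0 and limma 3.58.1 on log2(FPKM + 1) served as alternatives, with other scalings, no filter, left-out libraries and the male CD163KO MONO libraries that the study excluded. Ratios were tested by exact permutation in Python 3.11.15 with numpy 2.4.6, and Spearman's rho was computed with scipy 1.17.1. Scripts were tested on simulated data.

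Values per library were given by rule for the catalytic and PA28 genes and, per comparison, for up to 6 called members with the smallest adjusted p. Psma6, Psmb3, Psmd1, Psme2b, Psme4 and Psmg4 were named after their values were seen, as were the promoter motifs. The members, lists and tests were chosen with earlier results of these data known. Intervals other than SDs and SEs were not computed. By the methods both populations were sorted from the same brains, so the combination of sex, genotype and treatment was also fitted as a block. The female CD163KO MONO microglia had 799 counts of 4 Y-linked genes, while the macrophages of that label had 0. The pairing of these libraries is therefore uncertain. The deviations of macrophages and microglia of a combination from their population means correlated at between -0.44 (male WT PFF) and 0.26 over 1599 genes. Those of different combinations correlated at between -0.48 and 0.48.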

Additional observations from a re-analysis of the deposited data

Results flagged for a closer look

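In the male WT PFF microglia, 7 of the 8 catalytic and PA28 genes lay farther below the other 6 microglia libraries than Dixon's test allows for 7 samples. On the log2(FPKM + 1) scale Psmb8 was at 6.34 (the others between 7.82 and 8.05), Psmb9 at 3.80 (6.15 to 6.85), Psmb10 at 5.64 (6.75 to 7.21), Psmb5 at 4.57 (6.04 to 6.94) and Psmb7 at 3.22 (6.33 to 6.95). Psme1 was at 5.39 (6.82 to 7.35) and Psme2 at 6.41 (7.55 to 8.33). The log2 ratio of Psmb10 to Psmb7 in the same library was 2.41, where the others lay between -0.10 and 0.88. In all, 22 groups of 7 libraries were examined, and chance marks about 1 in 20. The 8 values come from 1 library and are not independent. In that library Cst3 took 19.7% of the counts, and its TMM factor was 0.432, against 1.96 to 2.12 in the other 6. The values of the 7 genes are not corrected by this factor, so they do not show that these genes were low after scaling. The ratio does not depend on it. The part of Cst3 and of scaling in these values was not tested.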

How the results depend on the processing

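The number of members called between the populations was 22, and it stayed within 1.5 times that number under 13 alternatives. It was 13, all lower in macrophages, with limma on log2(FPKM + 1), where 0 of the 22 were among the 13 and the median log2 fold change of the members was -0.68. Of all genes called, 62.7% were higher in macrophages with edgeR, 51.9% with DESeq2 and 11.0% with limma on FPKM. The count was 10 without the filter on low counts (15.7% of all genes called) and 14 with a fold change limit of 1 on the log2 scale (21.1%). Leaving out 1 combination at a time gave 12 (male WT MONO, 18.1% of all genes) to 29 (male WT PFF, 39.3%) called members. With the combination as a replicate block it was 18 (18.2%), and no other fit took the block. The number of members called for the genotype by treatment interaction in macrophages ranged from 0 to 9 when 1 library was left out, the 9 being without female WT PFF. The difference in the ratio of Psmb9 to Psmb6 was 0.32 with all libraries and lay between -0.45 and 0.13 with 1 pair left out. That of Psmb8 to Psmb5 lay between 0.39 and 0.70 and that of Psmb10 to Psmb7 between 0.56 and 1.42. Both passed the limit when the male WT PFF pair, the only one of opposite sign, was left out, which sets the exact p at its smallest value. The other member counts were 0 under each alternative run. Interactions of genotype and treatment could not be fitted without the female CD163KO MONO library. Except where stated, the cause of these changes was not tested. With 1 library per combination, the number of libraries limits the precision.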
